A study of Mus musculus with 14 samples.

Results

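The transcripts of 10 heat shock protein genes were followed in the hearts of wild-type mice: Hspa1a, Hspa1b, Hsp90aa1, Hsph1, Dnajb1, Hspb1, Hspb6, Hspb7, Cryab and Hspd1. They were chosen by symbol, and all 10 were found among the 56748 genes measured. The 14 hearts, with 1 RNA-Seq library each, came from mice labelled WT C57BL6J with no treatment, in the groups WT_A (n = 4, libraries A22, A23, A24 and A26), WT_F (n = 5, libraries A28 to A32) and WT_B (n = 5, libraries B4, B5, B7, B8 and B9). All were fed doxycycline chow, as controls for mice in which doxycycline switches on an shRNA against frataxin; the WT mice have no such transgene. The labels give 16 to 20 weeks of doxycycline for every mouse. By the mouse numbers in the study's supporting data, WT_A were males kept for 20 weeks and WT_F females kept for 26 weeks in a first cohort, and WT_B was, by elimination only, the all-male second cohort kept for 16 weeks; doxycycline began at 12 to 16 weeks of age. By these sources WT_A and WT_B differ in cohort and weeks of doxycycline, WT_A and WT_F in sex and weeks, and WT_B and WT_F in sex, weeks and cohort, and within each comparison these cannot be told apart. Xist was 1.23 to 4.97 FPKM in WT_F and at most 0.0122 in WT_A and WT_B. The Y-linked gene Ddx3y was 0 in WT_F and 2.37 to 15.6 FPKM in the other libraries.

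Heat shock proteins are chaperones, which keep other proteins folded. The HSP70 proteins (Hspa genes) bind exposed stretches of unfolded proteins with the help of J-domain proteins (Dnaj genes) and of nucleotide exchange factors such as Hsph1, while HSP90 proteins act later on signalling proteins. When unfolded proteins accumulate, the transcription factor HSF1 is released, forms trimers and binds inverted repeats of GAA in the promoters of stress-inducible genes. Small heat shock proteins hold unfolding proteins without using ATP, and several of them are kept at a high level in heart and skeletal muscle, where they protect the contractile apparatus and desmin filaments. Hspd1 (HSP60) forms the folding chamber of the mitochondrial matrix together with its lid Hspe1 (HSP10).

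Promoter sequences were searched for such repeats, and 6 are shown. These are windows of Hspa1a, Hspa1b, Hsph1, Hspd1 and Hspb1 that held a match, and that of Hspb7, which had none. Windows of the stress-inducible Dnajb1 and of Hspb6 are not shown, so the 6 do not compare inducible with muscle genes. Sequences of 250 bases up to the start site came from RefSeq (build GRCm38.p6) and were found for 8 of the 10 genes, not for Hsp90aa1 and Cryab. They were searched on both strands for GAANNTTC and TTCNNGAA, each of which reads the same on the other strand; the matches, which may overlap each other, are in capitals. Of 32851 such windows over all genes, 12.8% held at least 1 match, 1.46% at least 2 and 0.14% at least 3.
Hspa1a, chr17:34972157-34972406, minus strand: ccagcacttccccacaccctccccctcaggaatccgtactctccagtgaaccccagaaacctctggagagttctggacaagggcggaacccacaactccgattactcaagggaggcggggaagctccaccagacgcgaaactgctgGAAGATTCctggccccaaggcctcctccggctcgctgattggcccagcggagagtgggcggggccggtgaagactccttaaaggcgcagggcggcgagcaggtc
Hspa1b, chr17:34959239-34959488, minus strand: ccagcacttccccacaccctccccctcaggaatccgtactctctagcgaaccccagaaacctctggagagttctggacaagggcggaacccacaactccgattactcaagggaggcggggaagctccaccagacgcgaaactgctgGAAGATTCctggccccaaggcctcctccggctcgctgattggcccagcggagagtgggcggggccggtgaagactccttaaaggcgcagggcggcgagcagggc
Hsph1, chr5:149636337-149636586, minus strand: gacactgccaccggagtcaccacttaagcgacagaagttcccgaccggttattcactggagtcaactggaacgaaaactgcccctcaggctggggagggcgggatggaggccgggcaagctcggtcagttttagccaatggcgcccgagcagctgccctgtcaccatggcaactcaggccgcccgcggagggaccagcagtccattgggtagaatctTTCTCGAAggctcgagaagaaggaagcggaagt
Hspd1, chr1:55087933-55088182, minus strand: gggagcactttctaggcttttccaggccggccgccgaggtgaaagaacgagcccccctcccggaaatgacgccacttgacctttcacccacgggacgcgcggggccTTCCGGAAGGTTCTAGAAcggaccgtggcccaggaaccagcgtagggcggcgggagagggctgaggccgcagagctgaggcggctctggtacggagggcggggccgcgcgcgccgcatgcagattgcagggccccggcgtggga
Hspb1, chr5:135887669-135887918, plus strand: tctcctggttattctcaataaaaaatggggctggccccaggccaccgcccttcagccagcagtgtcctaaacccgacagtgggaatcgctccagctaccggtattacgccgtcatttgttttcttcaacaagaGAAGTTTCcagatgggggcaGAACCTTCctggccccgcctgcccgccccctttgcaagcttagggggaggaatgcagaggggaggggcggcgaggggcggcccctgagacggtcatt
Hspb7, chr4:141420529-141420778, plus strand: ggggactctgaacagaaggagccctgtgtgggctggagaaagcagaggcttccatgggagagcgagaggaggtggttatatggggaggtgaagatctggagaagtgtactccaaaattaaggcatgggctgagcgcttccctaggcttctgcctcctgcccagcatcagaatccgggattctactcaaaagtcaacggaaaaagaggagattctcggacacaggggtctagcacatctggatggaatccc
The windows of Hspa1a and Hspa1b were 98.8% identical. Counted from 1 at the 5′ end of the window, Hspa1b differed from Hspa1a by C44T, T47C and T249G, none of which lay in the match that begins 104 bases before the start site. Hsph1 had 1 match, beginning 33 bases before the start printed here. Hspd1 had 3 overlapping matches, beginning 144, 139 and 134 bases before the second of its 2 listed starts (the window of the other start had none), and the same letters lie before the start of the neighbouring Hspe1 on the opposite strand. Hspb1 had 2 matches, beginning 117 and 97 bases before its start. Hspb7 had none in its window. Neither of the 2 windows of Dnajb1 had a match, and 1 of the 2 of Hspb6 had 1. The second window of Dnajb1 lies downstream of its first listed start and holds the beginning of the coding sequence. A match describes these letters only, and binding was not measured.

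Values are FPKM, fragments scaled to transcript length and library depth, so that levels can be compared between genes of different length. Libraries held 16810000 to 31990000 fragments, read from the steps between low FPKM values. The rarest of the 10 genes, Hspa1a and Hspa1b, rested on 25 to 266 and 26 to 206 fragments per library, whereas Hspb7 rested on 33547 to 108025. In 7 libraries (A22, A28 and all of WT_B) mitochondrially encoded genes took 33.8% to 52.0% of the summed FPKM, and in the other 7 they took 1.93% to 17.2%. Library A24 carried atrial transcripts: Myl7 was 4235 FPKM and Myl2, the ventricular light chain, was 82.1 FPKM. Results that rest on A22, A28 or A24 are given with and without them.

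The small heat shock genes were among the most abundant transcripts of these hearts, and the inducible HSP70 genes were the lowest of the 10. Averaged over the 14 libraries, Cryab (αB-crystallin) was highest at 1173 ± 194 FPKM (SD, n = 14) and Hspa1a was lowest at 1.47 ± 1.24 FPKM. Cryab and Hspb7 ranked 18 and 21 among all nuclear genes by mean FPKM, Hspb6 ranked 60 and Hspb1 97. Hspd1 ranked 292, Hsp90aa1 947, Hsph1 3106 and Dnajb1 4922, and Hspa1b and Hspa1a ranked 9350 and 9539. Each gene exceeded the next in this order in 13 or 14 of 14 libraries, except in the top and the bottom pair. The transcripts of Hspa1a, Hspa1b, Hsp90aa1, Hspb1 and Hspd1 share sequence with other genes, as given below. Their levels, and so their places in this order, are uncertain. Cryab was above Hspb7 in 9 of 14 libraries, and Hspa1b was above Hspa1a in 9 of 14. Each pair kept the same order in all of WT_A, but not in WT_F or WT_B. The ratio of Cryab to Hspb7 was 1.01 to 1.74 in WT_A, 0.944 to 1.19 in WT_F and 0.853 to 1.16 in WT_B. That of Hspa1a to Hspa1b was 0.630 to 0.752 in WT_A, 0.861 to 1.18 in WT_F and 0.583 to 1.39 in WT_B.

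**Figure D1:**
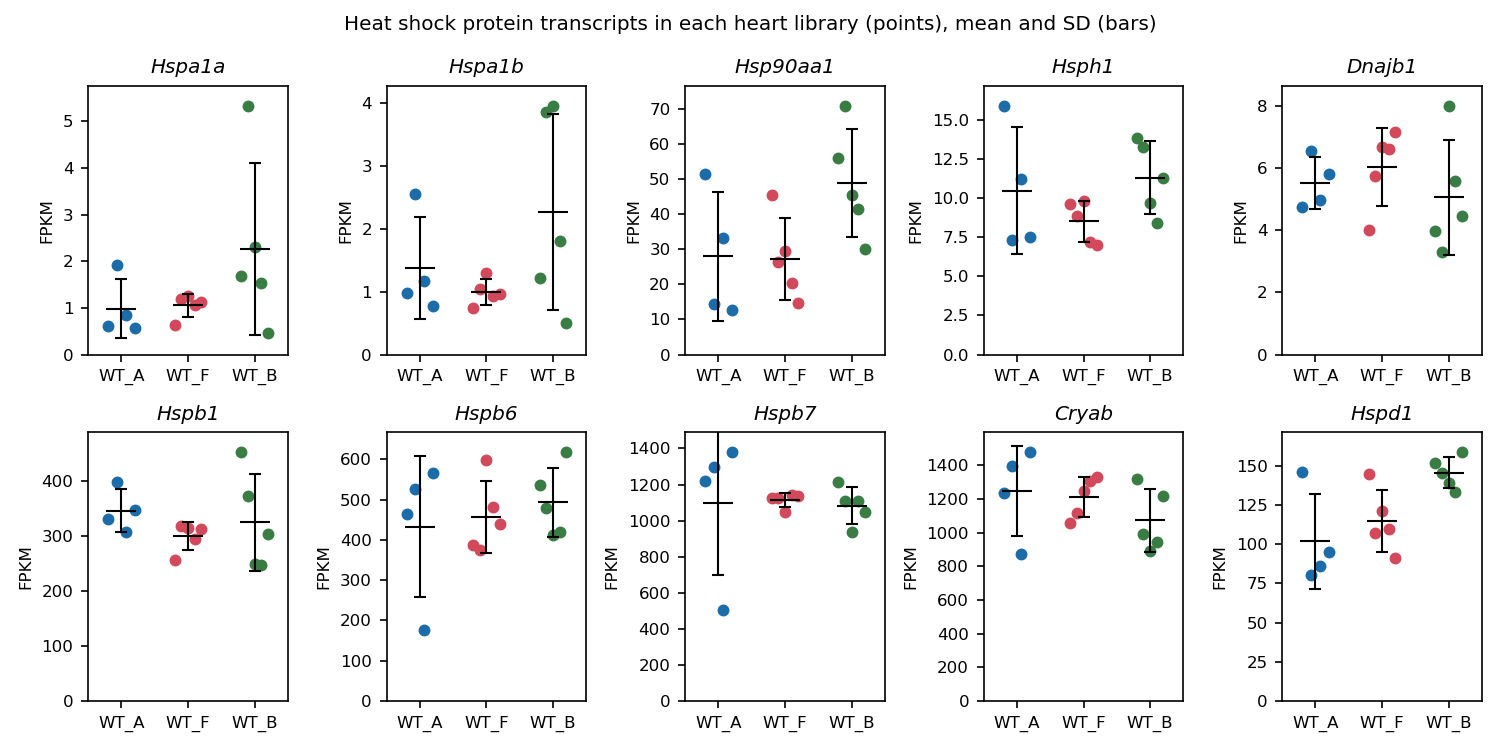
FPKM of each of the 10 genes in every library (points; linear axes from 0) by group, with the mean and SD as bars. Hspb6 and Hspb7 have 1 low WT_A point (A24) at 177 and 504 FPKM, and Hspa1a and Hspa1b lie between 0.46 and 5.33 FPKM.

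Hspa1a and Hspa1b encode the stress-inducible HSP70, nearly the same protein from neighbouring genes. Hspa1a measured 0.61, 1.92, 0.84 and 0.57 FPKM in WT_A (A22, A23, A24, A26), 0.63, 1.20, 1.25, 1.06 and 1.12 in WT_F (A28 to A32), and 1.68, 5.33, 2.30, 1.53 and 0.46 in WT_B (B4, B5, B7, B8, B9). The highest and the lowest value of all 14 were both in WT_B, and the groups overlapped. Hspa1b measured 0.97, 2.55, 1.17 and 0.77 FPKM in WT_A, 0.73, 1.04, 1.30, 0.93 and 0.95 in WT_F, and 1.22, 3.84, 3.95, 1.80 and 0.51 in WT_B. A23 was high for both genes within WT_A, B5 and B7 within WT_B, and B9 was lowest for both. Both genes had a spread in WT_B that few genes reached: their coefficients of variation (CV, SD over mean) were 81.4% and 68.9%, above those of 98.3% and 97.5% of expressed genes, where the median gene had 14.1%. In WT_F their CVs were 23.5% and 20.7% beside a median of 16.0%. About 48.6% of the 100-base windows of the Hspa1a transcript also occur in another gene and 49.9% of those of Hspa1b, mostly in each other. How many of their shared fragments were counted, and for which gene, is therefore uncertain. The ratio of Hspa1a to Hspa1b ran from 0.583 in B7 to 1.39 in B5.

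Their constitutive counterpart Hspa8 (HSC70), the HSP70 of unstressed cells, was far more abundant and steadier. Hspa8 ranged from 292 to 500.03 FPKM, a 1.71-fold range, where Hspa1a had an 11.6-fold and Hspa1b a 7.77-fold range. In the median library Hspa8 was 183 times the sum of Hspa1a and Hspa1b, from 37.4 times in B5 to 326 times in B9.

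Hsp90aa1, the stress-inducible cytosolic HSP90, varied 5.55-fold. It measured 51.5, 14.3, 33.0 and 12.7 FPKM in WT_A, 45.5, 26.2, 29.5, 20.5 and 14.7 in WT_F, and 55.9, 70.8, 45.5, 41.4 and 30.1 in WT_B. A22 and A28 stood at the level of WT_B, and the remaining WT_A and WT_F libraries lay between 12.7 and 33.0. Its constitutive counterpart Hsp90ab1 lay between 490 and 576 FPKM in all 14 libraries, a 1.18-fold range. The ratio of Hsp90aa1 to Hsp90ab1 within a library therefore ran from 0.0244 in A26 to 0.131 in B5. Hsp90aa1 shares 47.5% of its 100-base windows with other annotated genes, most with the pseudogene Gm12346.

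Hsph1 (HSP110), a nucleotide exchange factor for HSP70, varied 2.27-fold. It measured 15.9, 7.29, 11.2 and 7.48 FPKM in WT_A, 9.62, 8.87, 9.80, 7.20 and 7.004 in WT_F, and 13.9, 13.3, 9.71, 8.39 and 11.3 in WT_B. The highest library was A22, and the groups overlapped. Dnajb1 (HSP40), a J-domain partner of inducible HSP70, measured 4.75, 6.56, 4.96 and 5.82 FPKM in WT_A, 4.00, 5.74, 6.67, 6.62 and 7.15 in WT_F, and 3.99, 3.29, 8.005, 5.59 and 4.45 in WT_B. WT_B held both its lowest and its highest library.

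**Figure D2:**
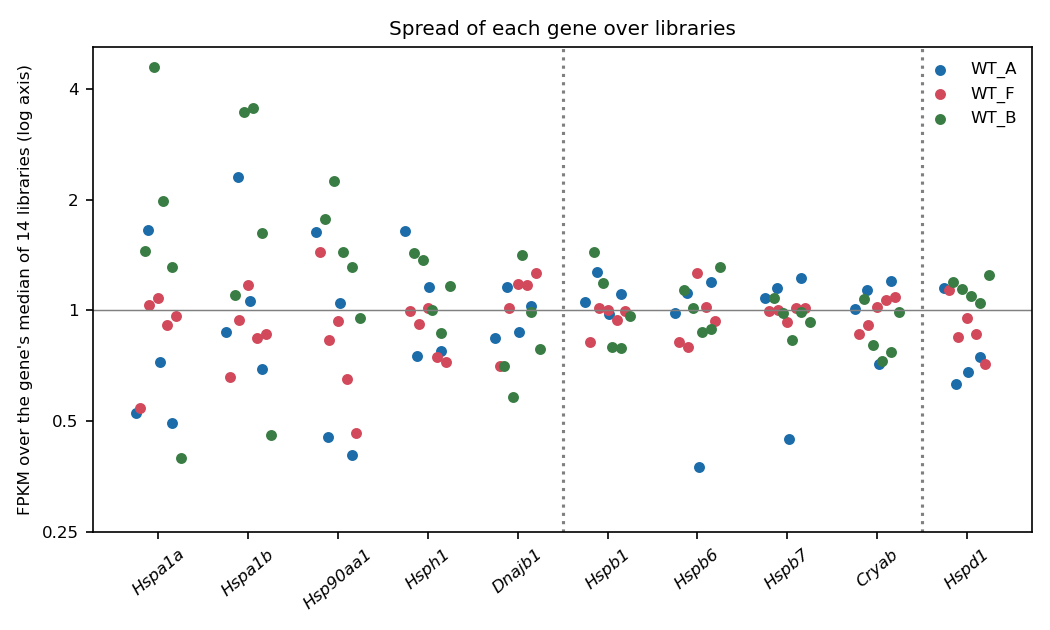
Each library's FPKM divided by the gene's median over the 14 libraries, on a log axis, for the cytosolic inducible chaperones (left), the small heat shock proteins (middle) and Hspd1 (right). Hspa1a and Hspa1b spread most, and of the small heat shock genes Hspb6 and Hspb7 have 1 far point, library A24.

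The muscle small heat shock genes were abundant, and how evenly they were expressed differed between genes and groups. Hspb7, a small heat shock protein found mainly in heart and skeletal muscle, measured 1219, 1298, 504 and 1378 FPKM in WT_A, 1123, 1128, 1048, 1140 and 1139 in WT_F, and 1213, 1110, 936 and 1111 in the first 4 libraries of WT_B and 1046 in B9. Its CV in WT_F was 3.45%, and 0.54% of expressed genes had a lower one. Cryab, which binds desmin and other sarcomeric proteins, measured 1236, 1397, 875 and 1477 FPKM in WT_A, 1060, 1117, 1250, 1306 and 1333 in WT_F, and 1321, 990.1, 891, 947 and 1217 in WT_B. The lowest Cryab value was that of A24, and B7 came next.

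Hspb6 (HSP20), which is phosphorylated on adrenergic stimulation of the heart, measured 464, 526, 177 and 565 FPKM in WT_A, 388, 376, 597, 483 and 440.3 in WT_F, and 536, 479.9, 411, 420.3 and 617 in WT_B. Hspb1 (HSP25), a small heat shock protein that is also stress-inducible, measured 331, 399.6, 307 and 348 FPKM in WT_A, 258, 319, 314, 295 and 313 in WT_F, and 453, 373, 249, 248 and 303 in WT_B. No WT_F library reached the median of WT_A for Hspb1, although the ranges overlapped. In WT_B the CV was 26.9% for Hspb1, above that of 82.6% of expressed genes, 17.4% for Hspb6, 17.3% for Cryab and 9.38% for Hspb7, beside a median of 14.1%. In WT_F it was 8.44% for Hspb1, 19.6% for Hspb6 and 9.84% for Cryab, beside 16.0%. Hspb1 shares 42.7% of its 100-base windows with the pseudogene Hsp25-ps1, so fragments of the pair may not have been separated.

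Library A24 was lowest of all 14 for Hspb6, Hspb7 and Cryab, at 0.365, 0.44 and 0.732 times the mean of the other 13, but not for Hspb1, at 0.95 times. Over those 13 libraries the range was 1.64-fold for Hspb6, 1.47-fold for Hspb7 and 1.66-fold for Cryab, beside 3.49-fold, 2.73-fold and 1.69-fold with A24. The related gene Hspb8, a partner of the cochaperone Bag3 in muscle, was also lowest in A24 (123 FPKM, beside a mean of 233 over all 14), and so was Bag3 (79.3 FPKM beside 131). The 6 atrial markers Myl7, Myl4, Nppa, Sln, Nr2f2 and Bmp10 summed to 12919 FPKM in A24 and to 23.5 to 234 FPKM in the others. The 4 ventricular markers summed to 245 FPKM in A24 and to 4379 to 8408 FPKM in the others. Which part of the low values goes with the atrial content was not tested.

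Over the 14 libraries Hspa1a, Hspa1b and Hsp90aa1 spread more than the small heat shock genes. Hsph1 and Dnajb1 lay slightly above Hspb6 and further above Hspb7, Hspb1 and Cryab. Over the 14 libraries the CV was 84.5% for Hspa1a, 71.6% for Hspa1b, 49.5% for Hsp90aa1, 27.3% for Hsph1 and 24.7% for Dnajb1. It was 24.1% for Hspb6, 18.5% for Hspb7, 17.8% for Hspb1 and 16.5% for Cryab, and the median over 13145 expressed genes was 21.2%. Without A24, the CV of Hspb6 was 16.2% and that of Hspb7 9.89%. The order differed within WT_A, which holds A24, where the CV was 38.6% for Hsph1 and 15.1% for Dnajb1. There it was 40.6% for Hspb6, 36.6% for Hspb7, 21.4% for Cryab and 11.3% for Hspb1. Hspa1a rested on 25 to 266 and Hspa1b on 26 to 206 fragments per library. The part of counting error in their spread was not tested.

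Hspd1 was 146, 80.1, 86.1 and 94.6 FPKM in WT_A, 144, 107, 121, 109.6 and 90.8 in WT_F, and 151, 145, 139, 133 and 158 in WT_B. A22 and A28 again stood with WT_B, and the 7 libraries rich in mitochondrially encoded RNA (133 to 158 FPKM) did not overlap the other 7 (80.1 to 121 FPKM). Its lid Hspe1 overlapped between the sets, at 35.9 to 80.6 FPKM in the same 7 and 34.4 to 47.4 FPKM in the other 7. The difference in log2(median FPKM + 1) between the sets was 0.29 for Hspe1 and 0.61 for Hspd1. The ratio of Hspd1 to Hspe1 ran from 1.81 in A22 to 3.98 in B9. It was 1.81 to 2.33 in WT_A, 2.13 to 3.10 in WT_F and 2.64 to 3.98 in WT_B. For this ratio A22 lay below WT_B, unlike for the level of Hspd1. Hspd1 shares 26.9% of its 100-base windows with other annotated genes, most with the pseudogene Hspd1-ps3.

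Each pair of groups was compared with limma on log2(FPKM + 1), two-sided, with p-values adjusted by Benjamini-Hochberg over all genes tested, keeping genes that reached 0.5 FPKM in 4 or more of the pair's libraries. Nothing says more of the replicates than that they are separate mice. The 3 comparisons share groups, so they are not independent of each other. All 10 genes passed the filter in each comparison.

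Between WT_F and WT_A none of the 10 genes differed by limma at an adjusted p of 0.05. Of 12483 genes, 0.016% were called higher in WT_F and 0.00801% lower (3 genes in all, and 480 at an unadjusted p under 0.05), so a count of 0 among 10 is no departure from the background. The ranges of the groups overlapped for all 10 genes, where 1.56% of genes had no overlap. The gene with the smallest p was Hspb1, with a log2 difference of -0.21 (SE 0.13, limma adjusted p = 0.9997, exact permutation p = 0.0635). Hspd1 differed by 0.19 (SE 0.20) and Hsp90aa1 by 0.10 (SE 0.43) on the same log2 scale.

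Between WT_B and WT_A none of the 10 was called either, with 0.259% of 12745 genes called higher and 0.0628% lower, and 2865 genes at an unadjusted p under 0.05. Hspd1 averaged 145 ± 9.97 FPKM (SD, n = 5) in WT_B and 102 ± 30.1 FPKM (SD, n = 4) in WT_A. Its log2 difference was 0.55 (SE 0.18, limma adjusted p = 0.135, exact permutation p = 0.0317), and all 5 WT_B libraries were above the WT_A median. Hsp90aa1 averaged 48.7 ± 15.4 FPKM in WT_B and 27.9 ± 18.2 FPKM in WT_A, a log2 difference of 0.95 (SE 0.40, limma adjusted p = 0.20, exact permutation p = 0.103). All ranges overlapped, where 6.91% of genes had none, and A22 alone made the groups overlap for Hspd1, while for Hsp90aa1 A24 was also above the lowest WT_B library. Without A22, limma called both higher in WT_B: Hspd1 by 0.74 (SE 0.12, adjusted p = 0.00425) and Hsp90aa1 by 1.31 (SE 0.34, adjusted p = 0.0284). Leaving A22 out also raised the number of genes called from 41 to 2392, so that 11.6% of all genes were called higher and 7.37% lower, beside 2 of the 10. Mitochondrially encoded genes took 1.93% to 6.63% of summed FPKM in the remaining WT_A libraries and 33.8% to 52.0% in WT_B. In this fit group and mitochondrial share cannot be told apart.

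Between WT_B and WT_F the same 2 genes had the largest differences of the 10 relative to their error, and again none was called. Of 12894 genes, 0.667% were called higher in WT_B and 0.946% lower, with 3323 at an unadjusted p under 0.05, and 5.23% had ranges that did not overlap, with none of the 10 among them. Hspd1 averaged 115 ± 19.8 FPKM (SD, n = 5) in WT_F, and its log2 difference was 0.36 (SE 0.11, limma adjusted p = 0.0967, exact permutation p = 0.0238). Hsp90aa1 averaged 27.3 ± 11.7 FPKM in WT_F and differed by 0.85 (SE 0.28, limma adjusted p = 0.103, exact permutation p = 0.0397). Hsph1 averaged 11.3 ± 2.32 FPKM in WT_B and 8.501 ± 1.32 FPKM in WT_F and differed by 0.36 (SE 0.14, limma adjusted p = 0.139, exact permutation p = 0.0635). Without A28, limma called Hspd1 (0.44, SE 0.09, adjusted p = 0.00892) and Hsp90aa1 (1.06, SE 0.25, adjusted p = 0.0143) higher in WT_B, while the number of genes called rose from 208 to 2645, or 11.4% higher and 9.31% lower. The mitochondrial share was then 2.42% to 17.2% of summed FPKM in WT_F and 33.8% to 52.0% in WT_B. Here too group and mitochondrial share cannot be told apart.

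The remaining genes gave smaller differences or larger errors. Hspa1a had a log2 difference of 0.60 (SE 0.36) for WT_B against WT_A and of 0.51 (SE 0.30) against WT_F, and 4 of 5 WT_B libraries were above the median of either group. Hspa1b had 0.37 (SE 0.36) and 0.57 (SE 0.29). These 2 genes lie near 1 FPKM, where differences on the log2(FPKM + 1) scale understate the change. Dnajb1 had -0.15 (SE 0.20) and -0.24 (SE 0.20), and Cryab had -0.20 (SE 0.22) and -0.19 (SE 0.13). The differences of Hspb6 and Hspb7 from WT_A, 0.30 (SE 0.33) and 0.08 (SE 0.30) for WT_B, turned negative without A24, at -0.08 (SE 0.17) and -0.26 (SE 0.15). Over the 30 tests of a single gene, 3 exact permutation p-values were below 0.05.

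**Figure D3:**
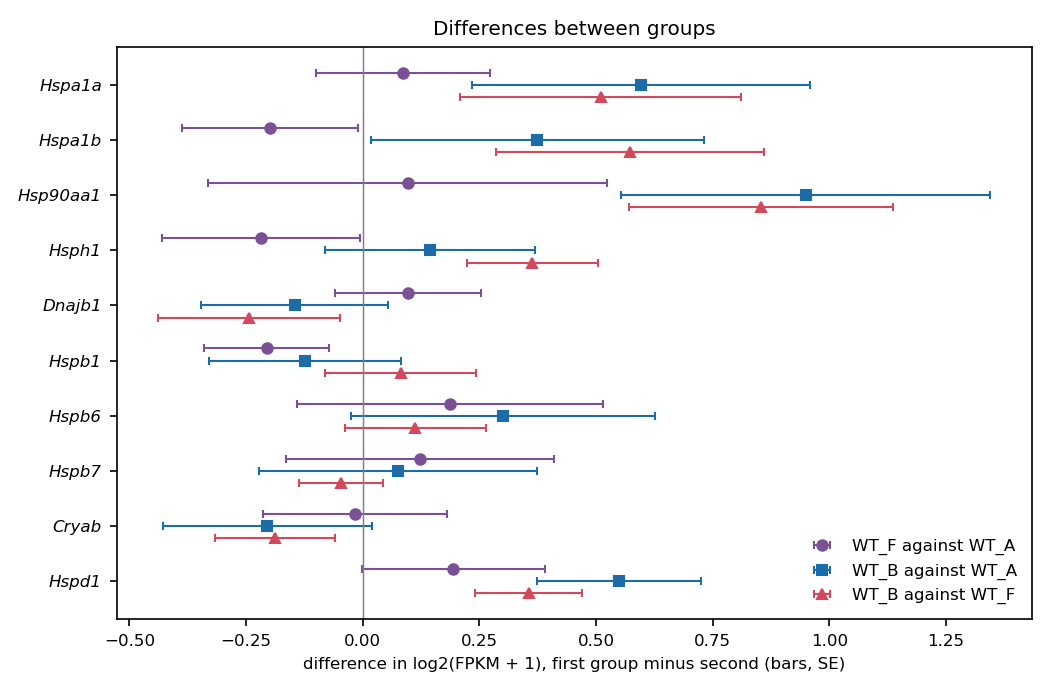
Difference in log2(FPKM + 1) between groups for each of the 10 genes (x axis, first group minus second; bars, SE) in the 3 comparisons. Hspd1 and Hsp90aa1 lie farthest from 0 relative to their error in both comparisons of WT_B, at 0.55 and 0.95 against WT_A and 0.36 and 0.85 against WT_F.

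The split of the libraries by mitochondrially encoded RNA was set beside the genes as a description, since the libraries form 2 clusters and the mitochondrial share also separates WT_B from most of the others. Hsp90aa1 had a median of 45.5 FPKM in the 7 libraries with more such RNA and 20.5 FPKM in the other 7, a ratio of 2.22. Hspd1 had a ratio of medians of 1.54 and Hsph1 of 1.51. Hspb1, Hspb6 and Hspb7 had ratios of 0.964, 0.960 and 0.976, Cryab 0.812, Dnajb1 0.677, Hspa1a 1.36 and Hspa1b 1.17. Hspd1 was the only 1 of the 10 genes with no overlap between the 7 and the 7 libraries, and 6.03% of 13180 genes lay wholly higher and 3.15% wholly lower in the former. Fits were also made with log2 of the mitochondrial percentage as a covariate. The log2 difference of Hsp90aa1 between WT_B and WT_A was then -0.26 (SE 0.33) and that of Hspd1 0.11 (SE 0.18). Between WT_B and WT_F those values were 0.06 (SE 0.24) and 0.06 (SE 0.10). A22 was the only WT_A library, and A28 the only WT_F library, with a mitochondrial share in the range of WT_B. The adjusted differences lean on these libraries, and the part of mitochondrial share in them was not tested. Within the 7 libraries with more mitochondrial RNA, A22 and A28 lay inside the WT_B range for Hspd1 and Hsp90aa1.

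**Figure D4:**
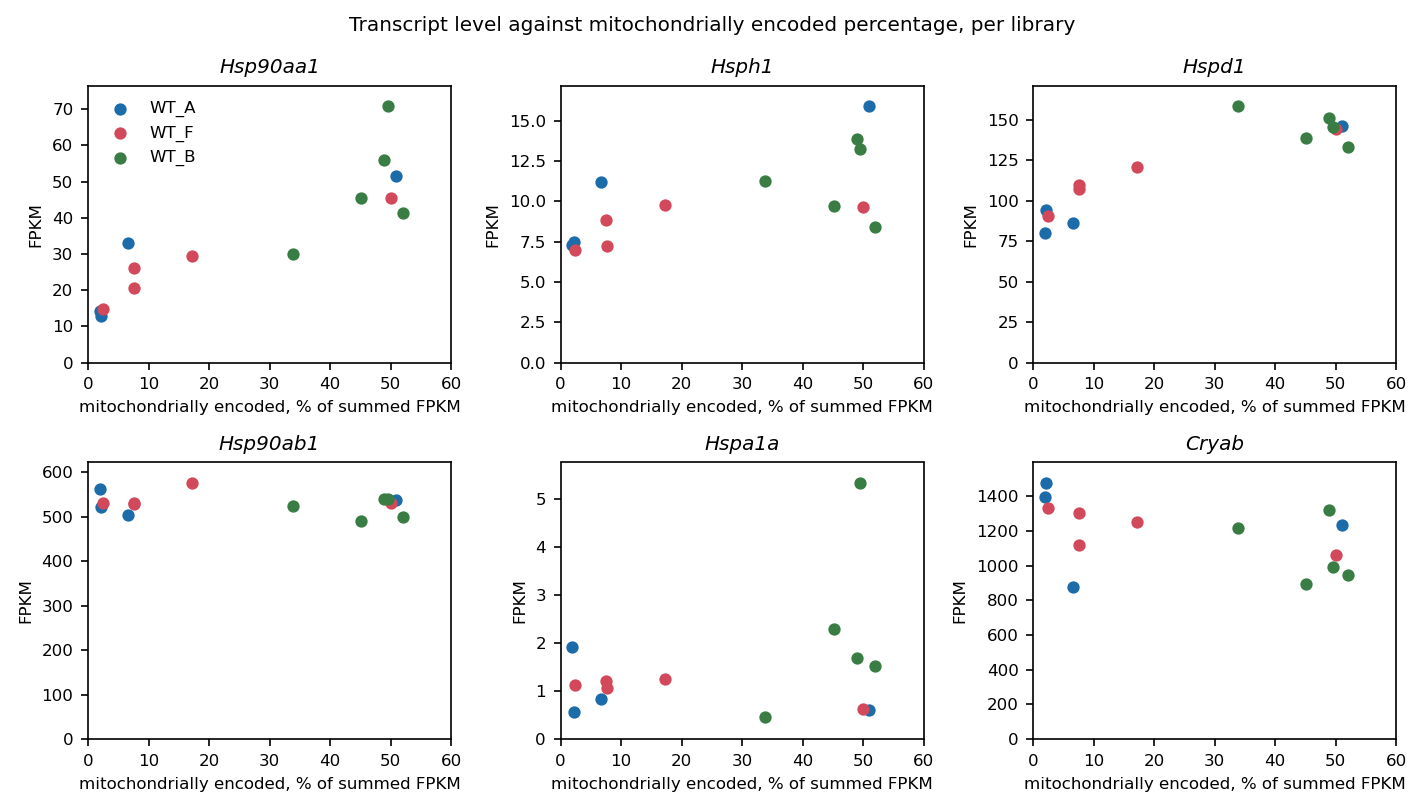
FPKM of 6 genes (y axes, from 0) against the percentage of summed FPKM from mitochondrially encoded genes (x axes) in each library, coloured by group. Hspd1 is 133 to 158 FPKM in the 7 libraries on the right and 80.1 to 121 FPKM in the 7 on the left, while Hsp90ab1 stays between 490 and 576 FPKM.

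The GC content of the transcripts moved with the same split. The 3 genes with the highest ratios between the libraries rich and poor in mitochondrial RNA had the lowest GC content of the 10, 43.7% for Hsp90aa1, 46.8% for Hspd1 and 47.3% for Hsph1, whereas the others had 52.7% to 61.7%. Over all genes, the median log2 difference between the 2 sets of libraries was 0.40 in the quintile of genes with the lowest GC content and -0.19 in the quintile with the highest. The second quintile, which holds Hspd1 and Hsph1, had a median of 0.05, and their own differences were 0.61 and 0.53. Hsp90aa1, which lies in the first quintile, differed by 1.11. Removing the trend on GC content in each library left the WT_B against WT_A difference of Hspd1 at 0.53 (SE 0.16) and that of Hsp90aa1 at 0.78 (SE 0.35). The part of GC content or mitochondrial share in these differences was not tested.

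**Figure D5:**
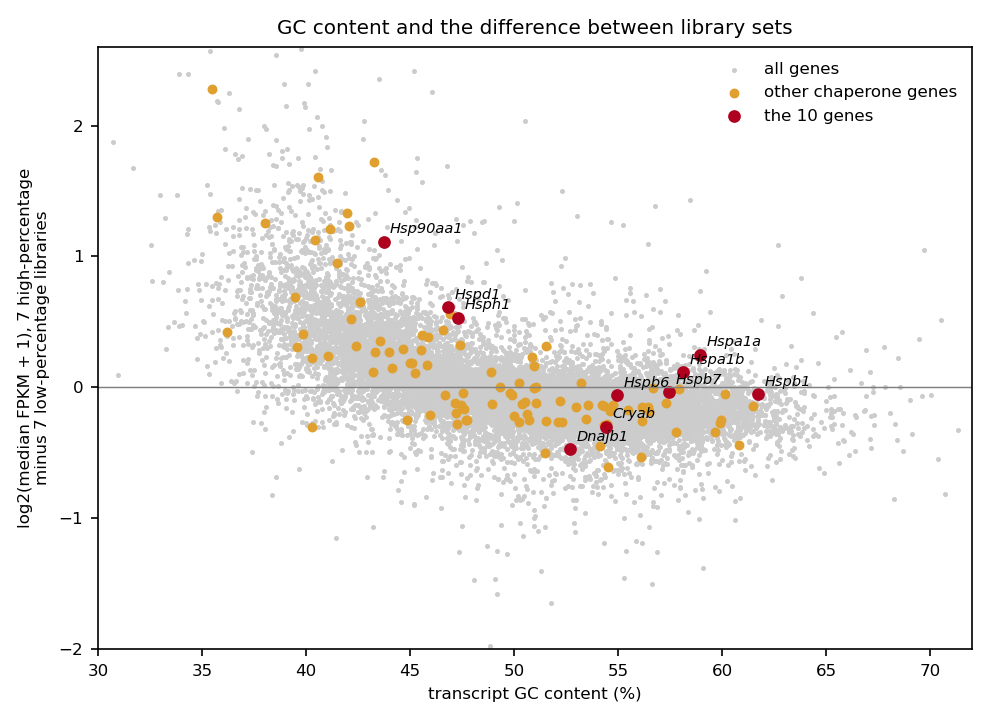
Transcript GC content (x axis) against the difference in log2(median FPKM + 1) between the 7 libraries with more and the 7 with less mitochondrially encoded RNA (y axis) for all genes (grey), other chaperone genes (orange) and the 10 genes (red). Hsp90aa1, Hspd1 and Hsph1 are the red points at 1.11, 0.61 and 0.53.

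The other genes of the chaperone network were counted from lists of the HSP70, HSP90, J-domain, small heat shock, HSF and cochaperone, mitochondrial, endoplasmic reticulum and chaperonin groups. In WT_F against WT_A and in WT_B against WT_A, no gene of these lists was called by limma, although up to 6 per list had an unadjusted p under 0.05. In WT_B against WT_F, 0.667% of all genes were called higher and 0.946% lower. There 1 of 14 tested genes of the cytosolic chaperonin and prefoldin list was called. None was called of 12 further HSP70, 17 HSP90, 18 J-domain, 4 small heat shock, 14 HSF and cochaperone, 14 mitochondrial and 14 endoplasmic reticulum genes. The called gene of the lists was Pfdn5, a prefoldin subunit that hands actin and tubulin to the chaperonin. It was called lower, at 31.99 ± 3.14 FPKM in WT_B and 52.1 ± 9.39 FPKM in WT_F (log2 difference -0.67, limma adjusted p = 0.0312). Its call was lost in 8 of the 10 fits that left out 1 library, with an adjusted p of at most 0.0942, and in 3 of 11 other alternatives, but its direction in none. With the mitochondrial percentage as a covariate its difference was -0.33 (limma adjusted p = 0.43). The median log2 differences of the lists lay between -0.15 and 0.10, beside -0.03 over all genes.

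Within these lists the genes with the smallest p in WT_B against WT_A lay in both directions, and none passed the adjusted threshold. Higher in mean were Hsp90b1, the HSP90 of the endoplasmic reticulum, with a log2 difference of 1.24 (SE 0.28), and Hspa5 (BiP), its HSP70, with 0.45 (SE 0.12). Lower in mean were Pfdn5 with -0.80 (SE 0.19), the HSP70 cochaperone Bag2 with -0.37 (SE 0.09) and Hsbp1, which binds HSF1, with -0.38 (SE 0.11). The ranges of the groups were separate for these 5 genes, which were picked by their p, and for 6.91% of all 12745 genes. They overlapped for the HSP90 cochaperone Chordc1 with 1.07 (SE 0.34) and for the J-domain genes Dnajb9, Dnajb4 and Dnaja1 with 1.27 (SE 0.34), 1.22 (SE 0.33) and 1.18 (SE 0.33).

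Without A22 and A28, calls appeared in most of these lists, in a fit that called 11.6% of all genes higher and 7.37% lower in WT_B than in WT_A. Limma then called higher 3 of 12 HSP70 genes, 6 of 17 HSP90 genes, 4 of 18 J-domain genes, 5 of 14 endoplasmic reticulum genes, 4 of 14 chaperonin and prefoldin genes, 2 of 14 mitochondrial genes and 1 of 14 HSF and cochaperone genes. Among the genes it called lower were Hsbp1 and Bag2 of the HSF and cochaperone list and 1 gene each of the HSP90 (Stub1), J-domain (Dnajb12) and chaperonin (Pfdn5) lists. In WT_B against WT_F, where 11.4% of all genes were called higher and 9.31% lower without A28, it called higher 6 of 17 HSP90 genes, 4 of 18 J-domain genes, 3 of 14 endoplasmic reticulum genes, 2 of 12 HSP70 genes and 1 gene each of the HSF, mitochondrial and chaperonin lists. It called lower 3 HSF and cochaperone genes (Hsbp1, Hspbp1 and Ubb), 2 genes each of the J-domain (Dnajb5 and Dnajb12), mitochondrial (Grpel1 and Clpp) and chaperonin (Cct2 and Pfdn5) lists and 1 HSP70 gene, Hspa8. None of the 4 small heat shock genes was called either way in any of these fits, and a gene in more than 1 list counts in each. In the fits of WT_B without A22 or A28, group and mitochondrial share cannot be told apart.

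Set beside the split by mitochondrial RNA, the lists lay in both directions too. In all 7 libraries with more of it, 5 of 17 HSP90, 3 of 18 J-domain, 2 of 14 endoplasmic reticulum, 1 of 14 HSF, 1 of 14 mitochondrial and 1 of 14 chaperonin and prefoldin genes exceeded all of the other 7, beside the 6.03% over all genes. Wholly below the other 7 were 3 of 14 chaperonin and prefoldin genes and 1 gene each of the J-domain, HSF and endoplasmic reticulum lists, beside 3.15% of all genes. Of the 12 HSP70 and the 4 small heat shock genes, 0 were separate in either direction.

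Among the other small heat shock genes, Hspb2, which lies head to head with Cryab, was 29.3 to 68.6 FPKM, and Cryab was 18.7 to 41.6 times as high within a library. The small heat shock partners in muscle, such as desmin (Des) and Bag3, had 0 of 8 genes called in each comparison. Without A28, 1 of the 8, the titin cap gene Tcap, was called lower in WT_B than in WT_F, beside 9.31% of all genes.

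Lists of other stress and timing genes were set beside the 10 genes. Of 13 tested immediate early genes, which respond within minutes to handling or injury of a tissue, none was called in any comparison by limma, with 3 at an unadjusted p under 0.05 for WT_B against WT_F, and Fos was 0.304 to 0.98 FPKM in all 14 libraries. Without A28, 3 of the 13 (Jun, Ier3 and Btg2) were called lower in WT_B than in WT_F, beside 9.31% of all genes. Of the 2 cold-inducible RNA-binding protein genes, Rbm3 was called higher in WT_B than in WT_F (4.88 ± 0.411 and 3.36 ± 0.467 FPKM, log2 difference 0.43, limma adjusted p = 0.0379) and Cirbp was not. Of 15 clock genes, the PAR bZIP factor Tef was called lower in WT_B than in WT_F (17.7 ± 0.549 and 24.2 ± 3.55 FPKM, log2 difference -0.42, limma adjusted p = 0.0453). Over all genes, 0.667% were called higher and 0.946% lower in WT_B than in WT_F. Leaving out 1 library at a time, the call of Rbm3 was lost in 8 of 10 fits and that of Tef in 9 of 10, with adjusted p-values of at most 0.11 and 0.114. Under the 11 other alternatives the call of Rbm3 was lost in 4, with a difference down to 0.19 and a limma adjusted p of up to 0.40 with the GC trend removed, and that of Tef in 6, with -0.20 and up to 0.57 with the mitochondrial covariate. Both kept their direction throughout. Without A28, 3 of the 15 clock genes (Arntl, Clock and Npas2) were called higher in WT_B than in WT_F, beside 11.4% of all genes. In the same fit 3 clock genes (Per3, Dbp and Tef) were called lower, beside 9.31%. Without A22, 1 clock gene (Tef) was called lower in WT_B than in WT_A, beside 7.37% of all genes. The list of heart muscle markers summed to 8179 to 13952 FPKM in every library.

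The genes most like each set were found by Pearson's r over the 14 libraries on log2 values rescaled to the nuclear-encoded total, among 10580 genes, as a description in which libraries share depth and mitochondrial content. For the mean of the 5 cytosolic inducible genes they were Nid1 (0.919), Map4k3 (0.910), Mapk1ip1l (0.906), Slc39a10 (0.8996) and Slc25a24 (0.895). Without A24 these values were 0.898 to 0.920. For the mean of the 4 small heat shock genes they were Alpl (0.933), Hspb8 (0.929), Plin5 (0.915), Lmcd1 (0.902) and Acta1 (0.901), with 0.696 to 0.859 without A24. For Hspd1 they were Brix1 (0.987), Pnpt1 (0.983), Ssb (0.983), Nmd3 (0.982) and Cd36 (0.981). The transcripts of these 5 have a GC content of 38.1% to 41.6%, and that of Hspd1 has 46.8%. For the genes most like the inducible set it was 42.5% to 50.4%, and for those most like the small heat shock set 53.0% to 58.9%. The part of GC content in these r values was not tested. Since the libraries form 2 clusters, r among the 10 genes was taken within the 7 libraries with more and the 7 with less mitochondrial RNA. It was 0.904 and 0.847 between Hspa1a and Hspa1b, high in both sets. Of their 100-base windows 48.6% and 49.9% also occur in another gene, mostly in each other. The part of this sharing in their r was not tested. Between Hsp90aa1 and Hsph1, r was 0.51 and 0.941, and between Hsp90aa1 and Hspd1 0.0044 and 0.711. Between Hsp90aa1 and Dnajb1 it was -0.28 and 0.05. Between Hspb6 and Hspb7, r was 0.01 and 0.89, and over all libraries but A24 it was -0.04.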

How the data were processed

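RNA-Seq of heart was analysed for 14 WT mice, 1 library each, in the groups WT_A, WT_F and WT_B taken from the labels. The authors extracted RNA with a Qiagen kit, selected mRNA on poly-T beads, counted fragments per gene with featureCounts and deposited FPKM values. The submitters' processing notes list the build GRCm39. The aligner is not given in the sources used here, nor is it settled whether the libraries keep the strand. Genes sharing fragments with an overlapping gene or a near-identical copy are therefore uncertain. Ensembl identifiers were named from GENCODE M21 (GRCm38), which matched 52073 of 56748; it served names, lengths and GC content. RefSeq promoters are of GRCm38.p6.

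From the deposited FPKM values, log2(FPKM + 1) was tested with limma 3.58.1 (intensity trend, two-sided) in R 4.3.3, on genes that reached 0.5 FPKM in 4 or more libraries of the compared groups, with Benjamini-Hochberg adjustment at 0.05. Single genes were also tested by an exact two-sided permutation test. Fragments were recovered from the FPKM steps: 90.3% to 92.0% of low values lay within 0.02 of a whole number, and 4% would by chance. Tables were made with Python 3.11.15, numpy 2.4.6 and pandas 2.3.3. The tests were tried on simulated data. The 10 genes, the lists and the alternatives were chosen with earlier results of these data known. Named were the 10 genes, the genes of each list with the smallest p in a comparison (3 at most) and the 5 genes most like a set (those of Hspd1 were added after its values were seen); Hspa8, Hspe1, Hsp90ab1, Hspb2, Hspb8, Bag3, the marker genes and list genes called only without A22 or A28 were named after their values were seen. Alternatives were the pseudocount (0.1, 5), no filter or one at 2 FPKM, 2 other scalings and all 14 libraries in 1 fit. Further ones were the mitochondrial percentage (as log2) as a covariate, libraries left out and voom on recovered fragments. Removal of the GC trend was chosen after seeing the data.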

Additional observations from a re-analysis of the deposited data

Results flagged for a closer look

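In 4 of 30 groups of values (10 genes in 3 groups), 1 library stood apart from the rest by Dixon's test at 95%, where chance gives about 1 in 20. Hspb6 was 177 FPKM and Hspb7 504 FPKM in library A24 of WT_A, the library with atrial transcripts. Hspb7 was 1048 FPKM in A30, where the other WT_F libraries lay within 1123 to 1140 FPKM. Hspa1a was 0.631 FPKM in A28 of WT_F, the library of that group with the most mitochondrially encoded RNA.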

How the results depend on the processing

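Values are log2 differences, first group minus second, of genes that were not called. The number of the 10 genes called was 0 under every alternative, except that it was 2 (Hspd1 and Hsp90aa1) without A22 and A28 for WT_B against WT_A and for WT_B against WT_F. Leaving out each library in turn gave 0 to 2 in both, with 2 only without A22 or A28. Of 624 values of single genes under an alternative, 583 kept their direction and their side of the threshold, 8 passed the threshold and 33 changed sign. With the mitochondrial covariate, Hsp90aa1 was -0.19 (WT_F against WT_A) and -0.26 (WT_B against WT_A), Hsph1 -0.47 (WT_B against WT_A), Cryab 0.027 (WT_F against WT_A), and Dnajb1 0.057 (WT_B against WT_A) and 0.055 (WT_B against WT_F). Rescaled to the nuclear-encoded total, Cryab was 0.041 (WT_F against WT_A), Hspb1 0.040 (WT_B against WT_A) and Hspb7 0.060 (WT_B against WT_F); by median-of-ratios scaling the last was 0.0061. With the GC trend removed, an alternative chosen after seeing the data, Cryab was 0.015 (WT_F against WT_A), Hspb1 0.0045 (WT_B against WT_A) and Hspb7 0.057 (WT_B against WT_F). Without A22 and A28, Cryab was 0.036 (WT_F against WT_A). Without A24, Hspb6 was -0.20 and Hspb7 -0.22 (WT_F against WT_A), and they were -0.084 and -0.26 (WT_B against WT_A). The causes were not tested.

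With each library left out in turn, the differences between WT_F and WT_A ran from -0.0096 to 0.29 for Hspa1a, -0.32 to 0.015 for Hspa1b, -0.19 to 0.46 for Hsp90aa1, -0.20 to 0.36 for Hspb6, -0.22 to 0.27 for Hspb7 and -0.18 to 0.074 for Cryab. Between WT_B and WT_A they ran from -0.084 to 0.47 for Hspb6 and -0.26 to 0.22 for Hspb7, and between WT_B and WT_F from -0.048 to 0.17 for Hspb1 and -0.089 to 0.0044 for Hspb7. Over all alternatives the number of genes called ran from 0 to 9 for WT_F against WT_A (3 as reported), 0 to 2392 for WT_B against WT_A (41) and 11 to 2645 for WT_B against WT_F (208). No paired analysis was possible because the groups share no replicate numbers. Group sizes of 4 and 5 and the 25 to 266 fragments behind Hspa1a limit what can be detected.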
